A study of Monodelphis domestica with 6 samples.

Results

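Ephrins, semaphorins, slits and netrins are the 4 classical families of axon guidance cues, and together with their receptors they were compared here between neonatal skin fibroblasts (neoSF) of a laboratory marsupial, the opossum Monodelphis domestica, and the induced pluripotent stem cells made from them (monoiPSC). The group was defined by gene symbol, with earlier results of these data known. Its members are ephrin ligands (EFNA, EFNB), EPH receptors, semaphorins of classes 3 to 7, plexins (PLXN), neuropilins (NRP), slits, ROBO receptors, netrins (NTN, NTNG), DCC and the UNC5 receptors. It held 70 of the 35665 genes counted, 36 ligands and 34 receptors, and 66 of the 70 were abundant enough to be tested.

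RNA-seq was available for 2 neoSF and 4 monoiPSC cultures, all wild type in the submitters' labels. The neoSF cultures came from 10-day-old female pups of the inbred strains FD2M1 and LSD1, 1 library per strain, and had been grown for 3 to 4 passages in a serum-containing fibroblast medium without further treatment. The monoiPSC were derived from such cells with OriP/EBNA episomal plasmids carrying human OCT4, SOX2, NANOG, KLF4, LIN28 and cMYC together with mp53DD, a dominant-negative p53, were expanded from picked colonies, were kept without feeders in a medium with LIF, bFGF, the ROCK inhibitor Y27632 and the N-2 and B-27 supplements, and were sequenced at passage 15 (P15) and passage 25 (P25) of each strain. The labels do not say whether both passages of a strain descend from the same colony, so p-values here measure the spread between these libraries, and passages of a strain may not be independent. The neoSF libraries were sequenced in-house with short single-end reads and the monoiPSC libraries by a service with longer paired-end reads, so read format, medium and cell type cannot be told apart in any of the comparisons between neoSF and monoiPSC below.

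As background, all these proteins were first known for steering growing axons, and all also act outside the nervous system on cell shape, adhesion and migration. Ephrins and their EPH receptor kinases both sit on cell surfaces and signal at contacts between cells, in both directions. Semaphorins, secreted or membrane-bound, act through plexins, and most secreted class 3 members need a neuropilin as binding partner. Slits repel through ROBO receptors, and netrins attract through DCC or repel through UNC5 receptors.

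Total counts ran from 14278794 to 16982978 in neoSF and from 28684754 to 35564261 in monoiPSC. A count of 3, taken here as the floor of detection, was worth 5.85 on the scale of normalized read counts (NRC) in FD2M1 neoSF, 4.75 in LSD1 neoSF and 1.55 to 1.88 in monoiPSC. Markers of the labelled cell types were high where the labels place them. The 14 of 17 fibroblast markers found summed to an NRC of 2158000 to 2664000 in neoSF and 9702 to 17030 in monoiPSC, and 11 of 12 pluripotency markers to 187.0 to 321.0 in neoSF and 15660 to 20350 in monoiPSC. Neural markers moved with the same contrast. Of 14 listed, 13 were found, and without NES, at 4225 or more in every library, the other 12 summed to 457 and 197 in neoSF and to 9307, 4676, 4102 and 9218 in FD2M1 P15, LSD1 P15, FD2M1 P25 and LSD1 P25, with GFAP and OLIG2 at no more than 13.8 in any library. Other lists also differed in their summed NRC between neoSF and monoiPSC, but members of a list did not all move together. The sums were 255 to 407 against 11780 to 28790 for 5 melanocyte and neural crest markers, with DCT and TFAP2B high and TYR at no more than 6.74. For 5 skeletal muscle markers they were 372 to 1356 against 1471 to 11450, highest in LSD1 P25. There MYOG was higher in every monoiPSC library (205.7 and 22.2 against 985.5 to 5549). MYOD1, DES and ACTN2 overlapped between the groups, and MYF5 was at no more than 8.94. For 6 endoderm markers the sums were 462 to 1112 against 1576 to 4311. There FOXA2 and CXCR4 rose, while GATA6 fell from 419.5 and 1079 to between 2.53 and 28.3. GATA4 was at 0 and SOX17 at no more than 2.51. For 3 primitive streak markers they were 25.8 to 34.2 against 72.9 to 91.1, with EOMES at no more than 3.29 and GSC at no more than 11.4. For 3 keratinocyte markers they were 55.6 to 151.5 against 0 to 6.74, with DSG3 at 46.8 and 147.8 in neoSF. The part of such cells in the results was not tested, and in bulk RNA fewer cells of a type and less RNA per cell cannot be told apart.

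NRC values are the deposited normalized values returned to the linear scale. They are always given in the order FD2M1 and LSD1 for neoSF, then FD2M1 P15, LSD1 P15, FD2M1 P25 and LSD1 P25 for monoiPSC. A gene was tested if every library of neoSF, or every library of monoiPSC, reached an NRC of 20. It was called differentially expressed (DE) where the adjusted p did not exceed 0.05 and the change was 2-fold or more. Adjusted p-values come from the quasi-likelihood test of edgeR, adjusted by Benjamini and Hochberg's method over all 13072 genes tested, and log2 fold changes are monoiPSC over neoSF, ± their standard error (n = 4 and 2 libraries). NRC is not divided by gene length, so levels are compared only within a gene.

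Of the 66 guidance genes tested, 43 were DE, 28 higher and 15 lower in monoiPSC. Among all genes tested, 45.9% were DE, 24.3% higher and 21.6% lower, against 65.2%, 42.4% and 22.7% of the guidance genes. A further 5 (EFNB3, EPHB3, EPHB4, PLXNB2 and PLXNB3) passed the adjusted p with less than a 2-fold change, all of them lower in monoiPSC, and 18 did not pass. Libraries of neoSF and monoiPSC did not overlap for 50 of the 66, a share near the 73.2% of all genes tested, and 54 of the 66 (81.8%, against 79.5% of all genes tested) differed in the same direction in all 4 comparisons of a monoiPSC library with its own strain's neoSF. The median log2 fold change was 0.225 (all genes tested, 0.0823). A gene that reached the NRC minimum in 1 cell type alone was let in by the side on which it was higher. SEMA3G, SLIT1, UNC5A and UNC5D passed in this way through monoiPSC, and SEMA4A, SEMA7A, EPHA5 and SEMA3E through neoSF, the last 2 of them with overlapping groups and not DE. Of the 58 that passed in both, 37 were DE (63.8%), as were 4237 of 10979 genes overall (38.6%). No test was made of the group as a whole.

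**Figure D1:**
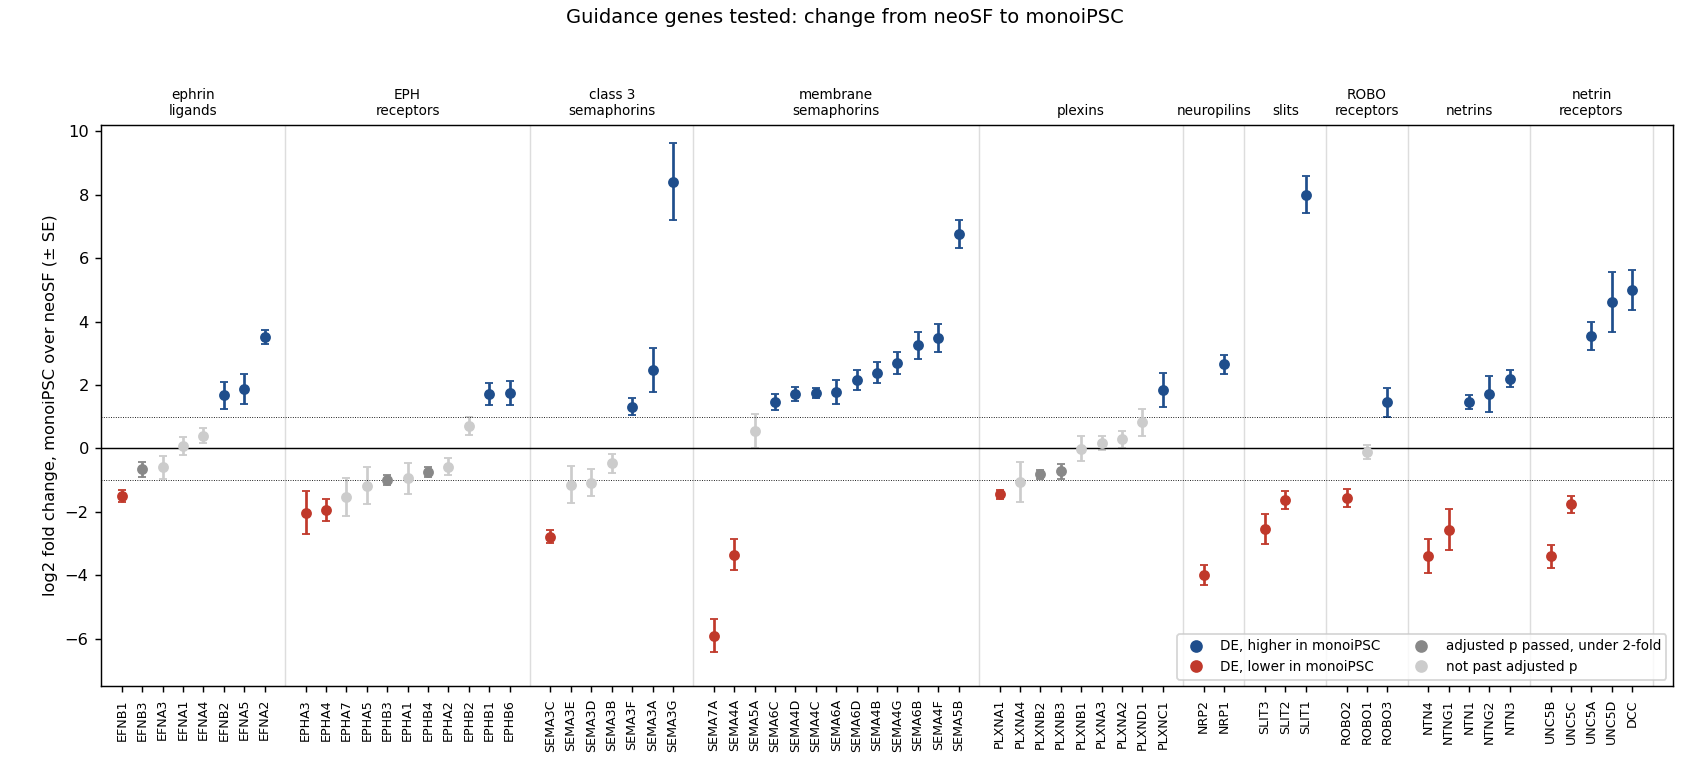
Log2 fold change (monoiPSC over neoSF, ± SE from edgeR) of each of the 66 guidance genes tested, grouped by role, with dotted lines at a 2-fold change in either direction. Membrane semaphorins lie mostly above the upper line (10 of 13 DE and higher), EPH receptors and plexins mostly between the lines or below, and each of the slit, netrin, neuropilin and netrin receptor groups is divided between both sides.

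By role, 20 of 36 ligands were DE and higher in monoiPSC (55.6%, against 24.3% of all genes tested) and 8 lower (22.2% against 21.6%). Of 30 receptors tested, 8 were higher (26.7%), 7 lower (23.3%) and 15 not DE, shares near those of all genes tested. Every tested slit, netrin, neuropilin and netrin receptor was DE, but each of these 4 groups held members moving in opposite directions.

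Ephrin ligands showed 3 genes higher, 1 lower and 4 not DE. The largest change was in EFNA2 (chromosome 3 of MonDom5), a GPI-anchored ephrin known from the mapping of retinal axons. Its NRC was 169.8 and 130.4 in neoSF and 1648, 1784, 1632 and 1338 in monoiPSC. All 4 monoiPSC libraries lay far above both fibroblast libraries, and the log2 fold change was 3.52 ± 0.22, or 11.4-fold (edgeR adjusted p = 2.82e-05). EFNA5, which acts in the same mapping, had 1322 and 394 in neoSF and 3406, 3401, 2733 and 2238 in monoiPSC (1.88 ± 0.47, edgeR adjusted p = 0.00984). The pair of neoSF libraries was itself far apart, and the log2 fold change moved to 3.00 without FD2M1 neoSF and to 1.28 without LSD1 neoSF, still DE both times. EFNB2, the transmembrane ligand that marks arteries, was read at 462 and 174 and 1172, 1021, 633 and 953 (1.67 ± 0.43, edgeR adjusted p = 0.0109). The size of its change too depended on the neoSF library, with a log2 fold change of 2.54 without FD2M1 neoSF and 1.15 without LSD1 neoSF.

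EFNB1, known for keeping cell populations apart at boundaries, went the other way. It had an NRC of 4971 and 5553 in neoSF and 1386, 1888, 1562 and 2173 in monoiPSC, with no overlap, and was 2.81-fold lower in monoiPSC (-1.49 ± 0.19, edgeR adjusted p = 0.000536). The third transmembrane ligand, EFNB3, passed the adjusted p at -0.65 ± 0.24 (edgeR adjusted p = 0.0444), with 449 and 381 in neoSF and 216, 310.5, 212 and 252 in monoiPSC. The 3 remaining GPI-anchored ephrins are immediate neighbours in the RefSeq gene order, and none was DE. Their log2 fold changes were 0.08 ± 0.28 for EFNA1, -0.59 ± 0.36 for EFNA3 and 0.40 ± 0.23 for EFNA4. The libraries of EFNA4 gave 299.8 and 235 and 362, 361, 318 and 277, so that the groups overlapped between 277 and 299.8.

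EPH receptors had 11 of 14 members tested, 2 higher, 2 lower and 7 not DE, and their median log2 fold change was -0.94. Both EPH receptors that were DE and higher were of the B class. EPHB1 was measured at 56.6 and 59.4 in neoSF and 149, 229, 134 and 202 in monoiPSC (1.70 ± 0.35, edgeR adjusted p = 0.0041). EPHB6, whose kinase domain is inactive, had 38.9 and 35.8 and 99.1, 90.8, 164 and 123 (1.75 ± 0.39, edgeR adjusted p = 0.00569). Neither gene's groups overlapped, and both were low in fibroblasts, with 43 counts for EPHB6 over both neoSF libraries.

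Both EPH receptors that were DE and lower were of the A class, while EPHB3 and EPHB4 passed the adjusted p with falls of less than 2-fold. EPHA4, which accepts ephrins of either class, had an NRC of 2522 and 1412 in neoSF and 729, 399.8, 443 and 336 in monoiPSC (-1.94 ± 0.34, edgeR adjusted p = 0.0021). EPHA3, known from mesenchymal cells, had 4207 and 1106 and 419.8, 1318, 329 and 358 (-2.03 ± 0.68, edgeR adjusted p = 0.0331). The groups of EPHA3 overlapped, since LSD1 P15 exceeded LSD1 neoSF. Its call was lost without FD2M1 neoSF (log2 fold change -0.76, edgeR adjusted p = 0.414), without FD2M1 P15 (0.0748), FD2M1 P25 (0.0711) or LSD1 P25 (0.0723), with the strain as a block (-2.13, edgeR adjusted p = 0.0614) and with the passages summed (edgeR adjusted p = 0.0669). The log2 fold change was -2.75 without LSD1 P15 and -2.67 without LSD1 neoSF, DE in both. EPHA7 had the same shape, 1915 and 314 in neoSF and 467, 431, 280.0 and 258 in monoiPSC, and was not DE (edgeR adjusted p = 0.0563). It was DE without LSD1 neoSF (log2 fold change -2.29), with DESeq2 and with no minimum NRC, and its direction turned without FD2M1 neoSF (0.30).

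EPHA2, a receptor of epithelial cells, was not DE, at 2995 and 3554 in neoSF and 1223, 2126, 2401 and 2513 in monoiPSC. All 4 monoiPSC libraries were below both neoSF libraries, by less than the test resolved (-0.57 ± 0.28, edgeR adjusted p = 0.109). EPHB4, the venous receptor of EFNB2, passed the adjusted p at 1.66-fold lower, with 2644 and 2344 and 1606, 1420, 1356 and 1229. EPHB3 was just short of the fold threshold at 1.99-fold lower, with 1038 and 1000 and 499.9, 406, 493 and 523. It was DE in 7 of 12 alternative fits, among them those with DESeq2, with limma and with the passages summed. EPHA1, EPHA5 and EPHB2 were not DE, with log2 fold changes of -0.94 ± 0.48, -1.17 ± 0.59 and 0.70 ± 0.28, each called in 1 of the fits that left out a library (EPHA1 without LSD1 neoSF, EPHA5 without LSD1 P25 and EPHB2 without FD2M1 neoSF). Without FD2M1 neoSF the log2 fold change of EPHA1 turned to 0.11. EPHA6, EPHA8 and EPHA10 were under the minimum: EPHA10 was at 0 in all libraries but 1, EPHA6 lay between 2.10 and 8.79, and EPHA8 had 2.93 and 13.2 in neoSF and 21.0, 27.1, 7.66 and 92.6 in monoiPSC.

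**Figure D2:**
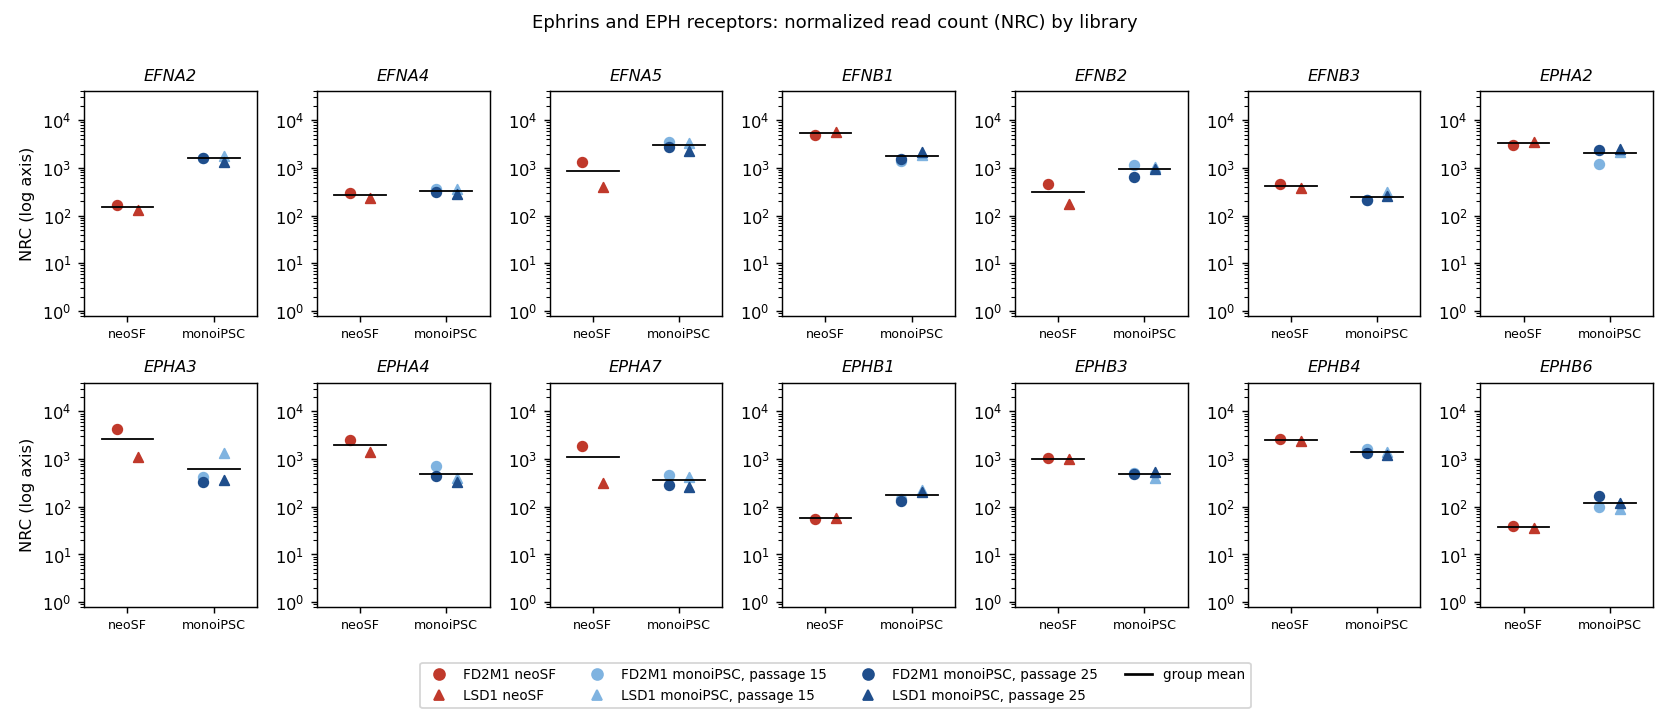
NRC of 14 ephrin and EPH genes (log axis) in each library, with circles for FD2M1, triangles for LSD1, red for neoSF, light blue for monoiPSC at passage 15, dark blue for passage 25, and a bar at each group mean. EFNA2 lies at 1338 to 1784 in monoiPSC and at 130.4 and 169.8 in neoSF, while the EPHA3 and EPHA7 libraries of neoSF are themselves spread (4207 and 1106 for EPHA3) and reach into the monoiPSC range.

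Of the 7 secreted class 3 semaphorins, 3 were higher, 1 was lower and 3 were not DE. SEMA3G (chromosome 6 of MonDom5), known as a cue of endothelial cells, had an NRC of 9.43 and 7.92 in neoSF and 658, 2645, 2064 and 5926 in monoiPSC, a log2 fold change of 8.41 ± 1.22, the highest of the 66 (edgeR adjusted p = 0.000861). In counts this was 10 over both neoSF libraries and 20993 over the 4 monoiPSC libraries, a 355-fold difference with a 95% interval, for counting error only, of 193 to 741. The monoiPSC libraries differed by 9.0-fold among themselves, lowest in FD2M1 P15 and highest in LSD1 P25, and without LSD1 P25 the log2 fold change was 7.74. The 10 endothelial markers summed to 256 to 305 in neoSF and 549 to 939 in monoiPSC, with CDH5 at no more than 1.26 in any library, TIE1 at 1.95 and 0 in neoSF and 333 to 583 in monoiPSC, and ERG at 18.0 and 67.1 in neoSF and 0 in every monoiPSC library. Their part in the SEMA3G result was not tested.

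SEMA3C, known for its part in heart outflow and neural crest migration, showed the opposite. It had 13350 and 11320 in neoSF and 1269, 1882, 1634 and 1946 in monoiPSC, and was 6.86-fold lower (-2.78 ± 0.20, edgeR adjusted p = 4.06e-05). SEMA3F, the ligand that works through NRP2, had 908 and 946 and 1487, 2010, 2808 and 2340 (1.32 ± 0.26, edgeR adjusted p = 0.0034). The log2 ratio of SEMA3F to SEMA3C reads within a library was -3.88 and -3.58 in neoSF and 0.0949 to 0.781 in monoiPSC, a shift of 4.07 that does not depend on library scaling. SEMA3A, the founding repellent of the class and a ligand of NRP1, had 96.9 and 39.3 in neoSF and 156, 211, 452 and 587 in monoiPSC (2.46 ± 0.69, edgeR adjusted p = 0.016). It was higher at P25 than at P15 in both strains, its log2 fold change was 3.25 without FD2M1 neoSF, and without LSD1 neoSF the call was lost (1.97, edgeR adjusted p = 0.0884). SEMA3B, SEMA3D and SEMA3E were not DE, at -0.47 ± 0.30, -1.08 ± 0.42 and -1.14 ± 0.57. SEMA3B was measured at 1830 and 2412 and 861, 1517, 1944 and 1419, and SEMA3D, for which the groups did not overlap, at 1468 and 599 and 559, 586, 423 and 251 (edgeR adjusted p = 0.0571). SEMA3D was DE with DESeq2, with DESeq size factors in edgeR and without LSD1 neoSF (-1.57). SEMA3E, at 93.4 and 41.7 and 20.8, 20.1, 53.1 and 19.99, was DE without FD2M1 P25 (-1.63). SEMA3A and SEMA3E are adjacent in the RefSeq gene order and had log2 fold changes of opposite sign.

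Of the 13 membrane semaphorins, 10 were higher, 2 lower and 1 not DE, with a median log2 fold change of 1.78 (1.73 with DESeq size factors in edgeR and 1.70 with limma on the deposited values). SEMA5B, which carries thrombospondin repeats, had 39.7 and 27.2 in neoSF and 2289, 3101, 3075 and 4770 in monoiPSC. All 4 monoiPSC libraries were far above both neoSF libraries, and the log2 fold change was 6.75 ± 0.43 (edgeR adjusted p = 3.01e-05). Its counts of 37 and 24134 gave a ratio of 110.3-fold with a 95% counting interval of 80.0 to 157. The related SEMA5A was not DE, with 1327 and 378 in neoSF and 1737, 872, 1271 and 748 in monoiPSC (0.54 ± 0.53, edgeR adjusted p = 0.395), and in neoSF and at both passages of monoiPSC it was lower in LSD1 than in FD2M1. It was DE without FD2M1 neoSF (1.72) and at -0.08 without LSD1 neoSF.

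All 4 class 6 semaphorins, transmembrane ligands of A-class plexins, were higher in monoiPSC without overlap of the groups. SEMA6B had 61.1 and 84 in neoSF and 491, 617, 455 and 1017 in monoiPSC (3.25 ± 0.43, edgeR adjusted p = 0.000591). SEMA6D had 238 and 122 and 875, 679.7, 672 and 757 (2.15 ± 0.31, edgeR adjusted p = 0.000776). The other two rose by 1.78 (SEMA6A) and 1.47 (SEMA6C) on the log2 scale, with monoiPSC ranges of 2528 to 5523 and 1219 to 1588.

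Class 4, which signals mainly through B-class plexins, had 5 of 6 genes higher. SEMA4F had 49.8 and 59.2 in neoSF and 337, 851, 494 and 597 in monoiPSC (3.47 ± 0.44, edgeR adjusted p = 0.000472). SEMA4G, SEMA4B, SEMA4C and SEMA4D, the ligand of PLXNB1, rose by 2.69, 2.39, 1.76 and 1.71, and SEMA4B by 2.99 without LSD1 neoSF. SEMA4D was even within each cell type, at 142 and 142 in neoSF and 440.5, 438, 484 and 384 in monoiPSC. The remaining member of the class, SEMA4A, best known from immune cells, had 107 and 98.5 in neoSF and 7.86, 14.1, 11.2 and 4.12 in monoiPSC (-3.35 ± 0.49, edgeR adjusted p = 0.000856). It was 10.2-fold lower, on 67 counts over the 4 monoiPSC libraries. The 4 immune markers found summed to 100.1 to 119.7 in neoSF and 30.6 to 41.3 in monoiPSC. Of these, CSF1R was lower in every monoiPSC library than its 71.2 and 77.95 in neoSF. CD68 stayed level, at 23.0 and 28.6 in neoSF and 28.45, 23.1, 24.6 and 25.2 in monoiPSC. PTPRC was at no more than 6.86 and CD3E at no more than 6.34 in any library. The part of immune cells in the SEMA4A result was not tested.

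SEMA7A, the GPI-anchored ligand of PLXNC1, had the lowest log2 fold change of the 66. It had 2433 and 2585 in neoSF and 49.1, 24.4, 69.1 and 15.8 in monoiPSC, was 59.6-fold lower (-5.90 ± 0.52, edgeR adjusted p = 9.62e-05), and was lower in LSD1 than in FD2M1 monoiPSC at both passages. Its receptor PLXNC1 was the 1 plexin of 9 that was DE and higher, with 186 and 40.1 in neoSF and 360.2, 393, 344 and 396 in monoiPSC (1.84 ± 0.54, edgeR adjusted p = 0.0202). The monoiPSC libraries of PLXNC1 were close together and the neoSF libraries were not, so that the log2 fold change was 3.34 without FD2M1 neoSF and 1.13 without LSD1 neoSF, DE in both, and the call was lost with the passages summed (edgeR adjusted p = 0.0844).

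Of the 9 plexins, 7 were not DE. PLXNA1, a common signalling partner of neuropilins, had 10970 and 10900 in neoSF and 3701, 4132, 3332 and 3874 in monoiPSC and was 2.72-fold lower (-1.44 ± 0.14, edgeR adjusted p = 0.000162). PLXNB2, the SEMA4C receptor, passed the adjusted p at 1.77-fold lower, with 9503 and 7748 and 4317, 4422, 4984 and 4552. PLXNB3 did so at 1.65-fold lower. The remaining PLXNA2, PLXNA3, PLXNA4, PLXNB1 and PLXND1 had log2 fold changes of 0.28 ± 0.28, 0.17 ± 0.21, -1.05 ± 0.62, -0.00 ± 0.38 and 0.83 ± 0.42. Of these, PLXNA4 differed 6.17-fold between the strains in neoSF (43.5 and 268) and was DE without FD2M1 neoSF (-1.82) but turned to 0.83 without LSD1 neoSF. PLXND1, the direct receptor of SEMA3E, was higher in LSD1 than in FD2M1 in neoSF (968 and 2046) and in monoiPSC (1986, 3428, 1512 and 3113) and was DE without LSD1 neoSF (1.49).

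The neuropilins, which bind class 3 semaphorins and VEGF, moved in opposite directions. NRP2 (chromosome 7 of MonDom5) had 18350 and 15280 in neoSF and 1380, 1092, 858 and 590.0 in monoiPSC, a 16.0-fold fall (-4.0 ± 0.32, edgeR adjusted p = 6.32e-05). NRP1 (chromosome 8) had 459.9 and 231 and 1813, 2286, 2016 and 1966, a 6.27-fold rise (2.65 ± 0.30, edgeR adjusted p = 0.000267). Within a library the log2 ratio of NRP1 to NRP2 went from -5.32 and -6.05 in neoSF to 0.394, 1.07, 1.23 and 1.74 in monoiPSC, a shift of 6.79. Such ratios are not corrected for gene length and are read only between libraries. This pair and the other ratios given here were picked after their values were seen, and no test was made of them.

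**Figure D3:**
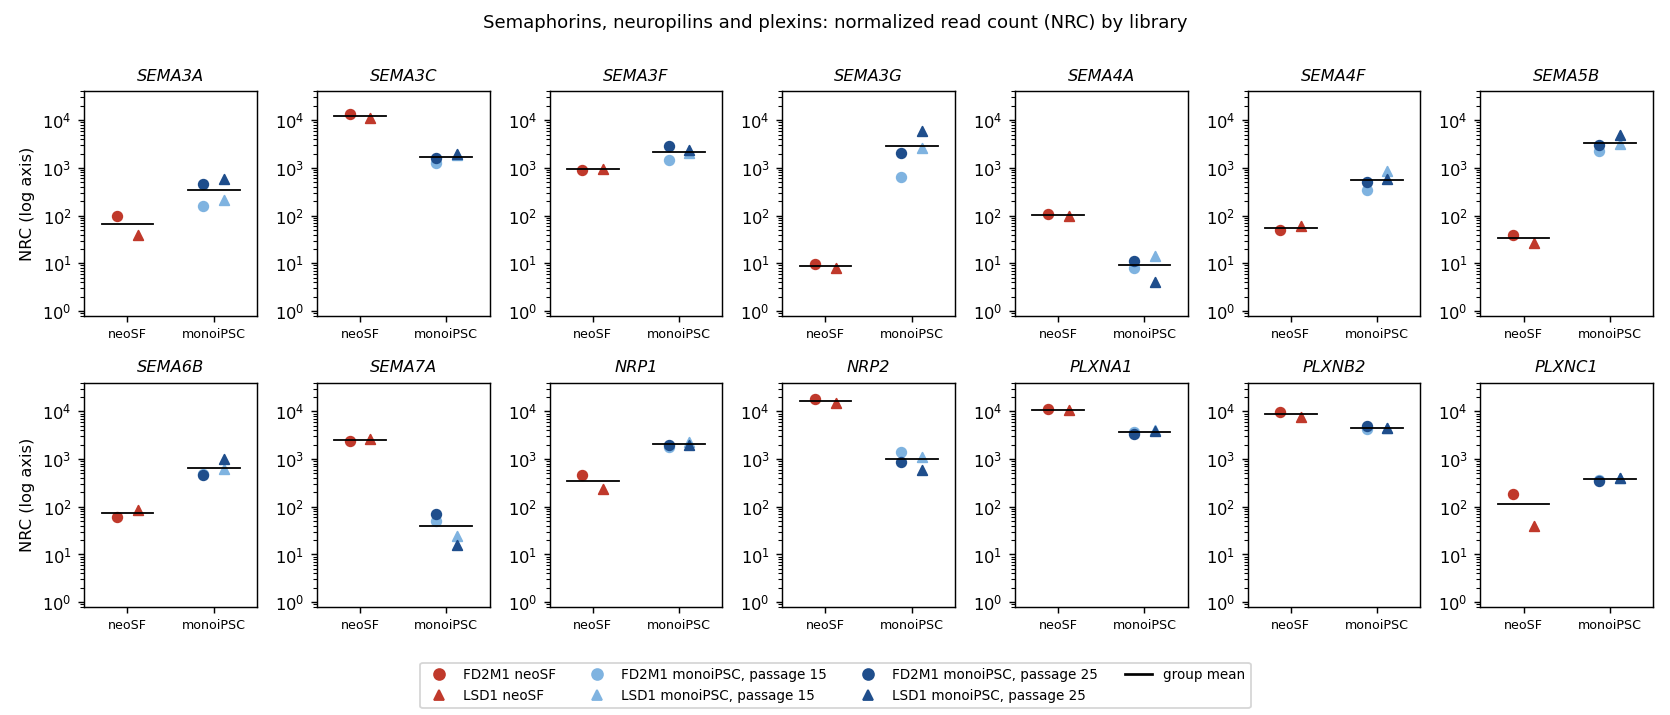
NRC of 14 semaphorin, neuropilin and plexin genes (log axis) in each library, with circles for FD2M1, triangles for LSD1, red for neoSF, light blue for monoiPSC at passage 15, dark blue for passage 25, and a bar at each group mean. From neoSF to monoiPSC, NRP1 goes up and NRP2 down, SEMA7A and SEMA3C drop, and SEMA3G and SEMA5B rise from an NRC of 39.7 or less in both neoSF libraries.

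The 3 slits were all DE, 1 higher and 2 lower. SLIT1 (chromosome 1 of MonDom5) was near the floor in neoSF at 8.79 and 4.31, against 1106, 1748, 2586 and 1387 in monoiPSC (8.0 ± 0.58, edgeR adjusted p = 4.62e-05). Its 8 counts over both neoSF libraries and 12109 over the monoiPSC libraries gave a 256-fold difference with a 95% counting interval of 129.9 to 593. SLIT2 and SLIT3 were lower in monoiPSC. SLIT2 had 7078 and 3480 in neoSF and 1888, 1290, 1748 and 1508 in monoiPSC (-1.62 ± 0.28, edgeR adjusted p = 0.00188), a change of -1.01 without FD2M1 neoSF. SLIT3 had 1820 and 7102 and 704, 769.5, 933 and 474 (-2.54 ± 0.48, edgeR adjusted p = 0.00287), and -1.22 without LSD1 neoSF or -3.20 without FD2M1 neoSF, DE in both. The strains differed in opposite senses in neoSF, SLIT2 being higher in FD2M1 and SLIT3 in LSD1. The log2 ratio of SLIT1 to SLIT2 was -9.65 and -9.66 in neoSF and -0.771 to 0.565 in monoiPSC, a shift of 9.68.

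Of the 3 ROBO receptors tested, 1 was higher, 1 lower and 1 not DE. ROBO1, a main slit receptor, was not DE, with 2988 and 2714 in neoSF and 2342, 3306, 1990 and 2204 in monoiPSC (-0.12 ± 0.22, edgeR adjusted p = 0.664). ROBO2 had 2529 and 2568 and 679, 1251, 621 and 672, lower in monoiPSC without overlap (-1.56 ± 0.29, edgeR adjusted p = 0.00254), and LSD1 P15 stood above the other monoiPSC libraries. ROBO3, the divergent receptor of commissural neurons, had 166 and 63.8 and 295, 269.8, 205 and 401 (1.46 ± 0.46, edgeR adjusted p = 0.0254). Its call was lost without LSD1 neoSF (log2 fold change 0.94, edgeR adjusted p = 0.109) or LSD1 P25 (edgeR adjusted p = 0.0521) and with the passages summed (edgeR adjusted p = 0.0683), and its log2 fold change was 2.31 without FD2M1 neoSF. ROBO4, the endothelial receptor and the neighbour of ROBO3 in the RefSeq gene order, was under the minimum for testing, with 4.88 and 1.58 in neoSF and 17.4, 10.8, 12.2 and 25.2 in monoiPSC. It was DE and higher when no minimum was set (edgeR adjusted p = 0.029). With 2 and 1 counts in neoSF, ROBO4 was at least 3.01-fold higher in monoiPSC when neoSF is set at the floor of 3 counts per library.

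All 5 netrins were DE, 3 higher and 2 lower. NTN1, the netrin that acts through DCC and UNC5 receptors in the ventral neural tube, had 1258 and 1862 in neoSF and 3579, 3889, 4062 and 4615 in monoiPSC (1.46 ± 0.21, edgeR adjusted p = 0.000828). NTN3 had 106 and 99.3 and 335, 412, 522 and 492 (2.2 ± 0.27, edgeR adjusted p = 0.000415). Both were higher in every monoiPSC library than in either neoSF library. NTN4, a basement membrane netrin that binds laminin, fell 10.6-fold, from 798 and 736 to 27.2, 86.8, 39.0 and 118 (-3.40 ± 0.54, edgeR adjusted p = 0.00129), and was higher in LSD1 than in FD2M1 monoiPSC at both passages.

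The GPI-anchored netrin-G genes, whose products bind LRRC4-family proteins and not DCC, were called on less even data. NTNG1 had 289.5 and 46.6 in neoSF and 38.0, 20.1, 20.9 and 26.3 in monoiPSC (-2.56 ± 0.65, edgeR adjusted p = 0.0108). That call rested on FD2M1 neoSF, without which the log2 fold change was -0.70 (edgeR adjusted p = 0.339), it was also lost with the passages summed (edgeR adjusted p = 0.0637), and without LSD1 neoSF the log2 fold change was -3.33. NTNG2 had 36.5 and 53.3 and 208, 103, 64.6 and 186 (1.72 ± 0.57, edgeR adjusted p = 0.0317). Leaving out either neoSF library (edgeR adjusted p = 0.139 without FD2M1 and 0.0711 without LSD1), FD2M1 P15 (0.0624) or LSD1 P25 (0.0623) lost that call. NTNG2 and ROBO3 were both highest in FD2M1 P15 and LSD1 P25 among monoiPSC libraries (ROBO3 at 295 and 401). So were the neuronal genes TUBB3 (3171, 1438, 1120 and 3414) and STMN2 (2264, 1611, 1108 and 2725). Not every neural marker was, SOX1 (203, 109, 84.1 and 18.0) and PAX6 (140.1, 41.3, 24.5 and 2.06) being lowest in LSD1 P25. Whether the patterns are linked was not tested.

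Netrin receptors had 3 genes higher and 2 lower. DCC (chromosome 3 of MonDom5), the attractive receptor, had 64.7 and 21.4 in neoSF and 881, 1580, 728 and 1753 in monoiPSC (4.99 ± 0.63, edgeR adjusted p = 0.000473). That was 33.6-fold with a 95% counting interval of 25.2 to 45.9, and the log2 fold change was 4.38 without LSD1 neoSF and 6.00 without FD2M1 neoSF. UNC5A had 19.2 and 17.8 and 142, 168, 279 and 217 (3.54 ± 0.43, edgeR adjusted p = 0.000392). UNC5D was at 13.7 and 1.58 in neoSF, 8 counts in all, and at 302, 170.0, 120.4 and 72.4 in monoiPSC (4.60 ± 0.95, edgeR adjusted p = 0.00426). Among monoiPSC libraries UNC5D fell in the same order as the neural markers SOX1 (203, 109, 84.1 and 18.0), PAX6 (140.1, 41.3, 24.5 and 2.06) and NEUROD1 (53.3, 34.8, 22.3 and 16.45). The other neural markers found did not have that order. Among them, NES (4960, 6455, 4225 and 10430) and ELAVL3 (571, 360, 456 and 912.5) were highest in LSD1 P25. Whether UNC5D is linked to any of these genes was not tested. The log2 fold change of UNC5D was 3.72 without LSD1 neoSF and 6.74 without FD2M1 neoSF.

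UNC5B and UNC5C, repulsive netrin receptors, went down. UNC5B, also known from blood vessels, had 2337 and 5173 in neoSF and 358, 441, 320.0 and 211 in monoiPSC, 10.6-fold lower (-3.40 ± 0.37, edgeR adjusted p = 0.000224), and -2.69 without LSD1 neoSF. UNC5C had 941 and 899 and 242, 342, 174 and 255 (-1.76 ± 0.26, edgeR adjusted p = 0.000957). Groups overlapped for neither gene. Within a library, the log2 ratio of DCC to UNC5B went from -5.17 and -7.92 in neoSF to between 1.19 and 3.05 in monoiPSC, and that of UNC5A to UNC5B shifted by 6.84.

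**Figure D4:**
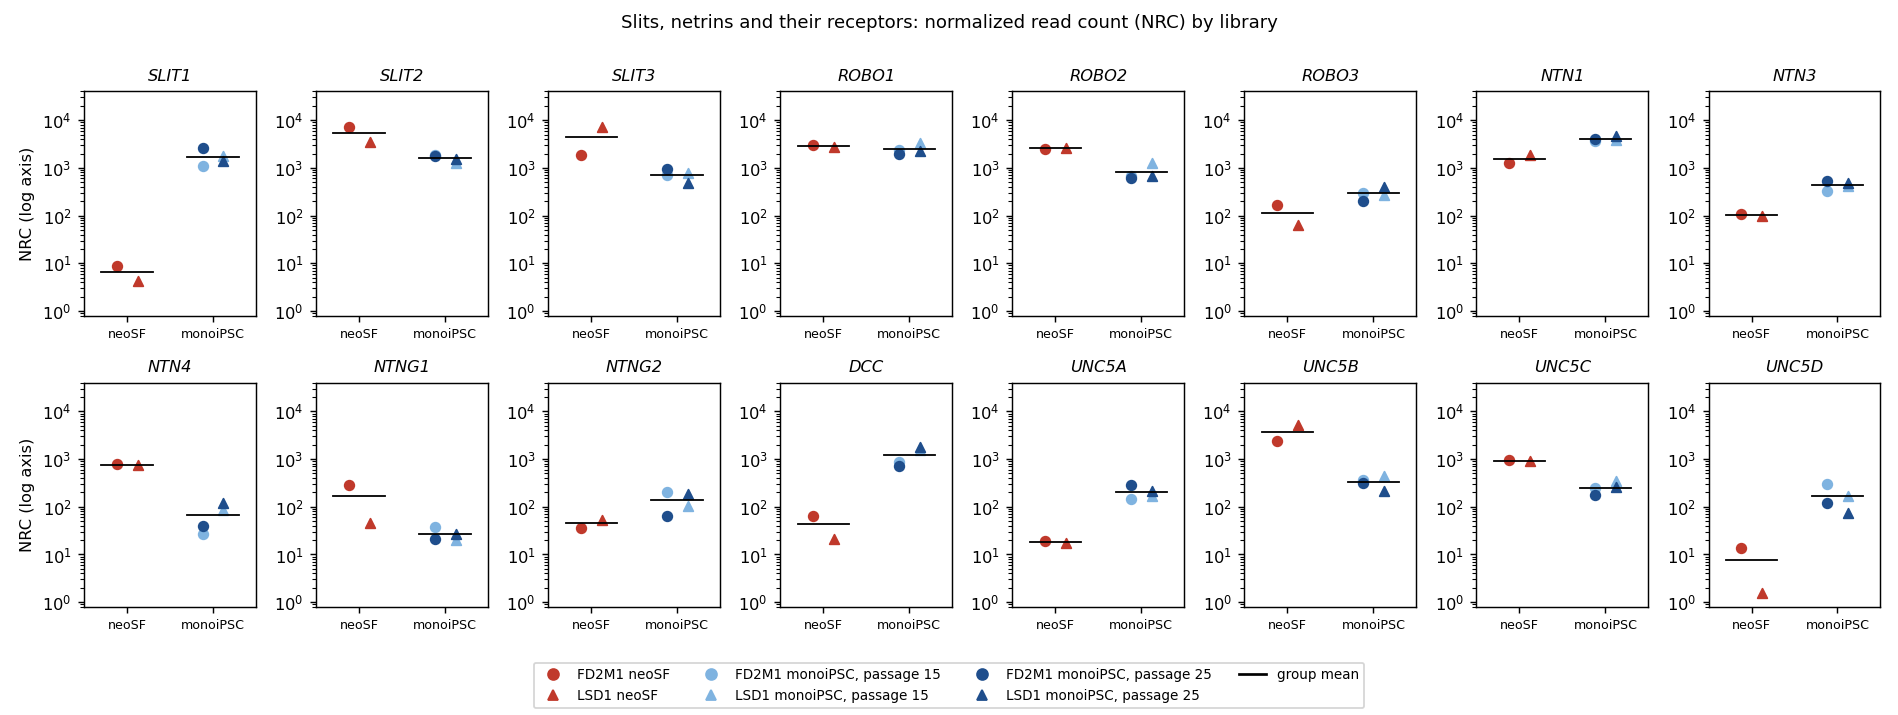
NRC of all 16 tested slit, ROBO, netrin and netrin receptor genes (log axis) in each library, with circles for FD2M1, triangles for LSD1, red for neoSF, light blue for monoiPSC at passage 15, dark blue for passage 25, and a bar at each group mean. SLIT1, DCC, UNC5A and UNC5D rise from an NRC of 64.7 or less in both neoSF libraries, SLIT2, SLIT3, NTN4, UNC5B and UNC5C fall, and ROBO1 keeps overlapping values of 1990 to 3306 across all 6 libraries.

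Other genes of these pathways were read from a list of 54, of which 48 were found and 46 tested. Of them 11 were higher, 13 lower and 22 not DE, so that 52.2% were DE, near the 45.9% of all genes tested. DRAXIN, a secreted repellent that binds DCC, had 1 count in either neoSF library and NRC values of 482, 818, 142 and 628 in monoiPSC, at least 95-fold higher when neoSF is set at the floor of 3 counts per library (edgeR adjusted p = 0.000629). The repulsive guidance molecules RGMA and RGMB, ligands of the DCC relative NEO1, rose by 1.48 and 1.97 on the log2 scale, while NEO1 itself was not DE (-0.27 ± 0.13, edgeR adjusted p = 0.113). Of the collapsin response mediators that relay class 3 semaphorin signals, CRMP1 rose by 4.85 and DPYSL5 by 2.10. Their relatives DPYSL2 (0.90, past the adjusted p only) and DPYSL3 (-0.62) were not DE, and DPYSL4, under the minimum for testing, had an NRC of 19.8 and 17.95 in neoSF and 2.25, 0, 0 and 0 in monoiPSC.

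Several cytoplasmic partners fell. CHN2, a Rac regulator in the family that relays EPH and semaphorin signals, had an NRC of 1848 and 2122 in neoSF and 3.37, 6.50, 7.87 and 8.24 in monoiPSC (-8.14 ± 0.30, edgeR adjusted p = 7.81e-06). MICAL2, of a family of actin oxidases that act downstream of plexins, fell by 4.39, and FLRT3, a membrane protein that binds UNC5 receptors, fell by 3.73. The EPHA exchange factor NGEF fell by 3.59, from an uneven 154 and 28.5 in neoSF, and the actin regulator ENAH fell by 2.08. The Rac exchange factors TIAM1 and VAV3 rose by 2.12 and 2.24. NCK1 and NCK2, adaptors that link these receptors to actin, were not DE (-0.05 and -0.23), nor were LRRC4 (0.54) and LRRC4C (-0.02), which bind netrin-G proteins. CHN2 and NGEF reached the NRC minimum through neoSF alone, and DRAXIN and VAV3 through monoiPSC alone. Each was thus let in by the side on which it was higher.

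Between passages and between strains of monoiPSC, 62 of the guidance genes could be tested among 12252 genes, with 1 residual degree of freedom for the spread. Between P25 and P15 edgeR called 0 of them at an adjusted p of 0.05 (0% of all genes tested), with 15 at an unadjusted p under 0.05 (24.2%, against 9.35% of all genes tested), and DESeq2 called 2 (3.23% against 1.22%). These were SEMA3G (log2 1.40 ± 0.23, DESeq2 adjusted p = 6.43e-07) and SEMA3A (1.5 ± 0.33, DESeq2 adjusted p = 0.000822). Both were higher at P25 in both strains, SEMA3A by a log2 difference of 1.54 in FD2M1 and 1.48 in LSD1, and SEMA3G by 1.65 and 1.16. UNC5D, called by neither tool, was lower at P25 in both, with differences of -1.33 and -1.23. NTNG2 had differences of opposite sign, -1.69 in FD2M1 and 0.86 in LSD1.

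Between LSD1 and FD2M1 monoiPSC edgeR again called 0 (0% of all genes tested), with 15 at an unadjusted p under 0.05 (24.2%, against 14.2% of all genes tested), and DESeq2 called 5 (8.06% against 2.33%). SEMA3G (1.77 ± 0.23), DCC (1.06 ± 0.25), PLXND1 (0.92 ± 0.22) and PLXNB1 (0.76 ± 0.22) were higher and SEMA5A (-0.87 ± 0.24) lower in LSD1. NTN4, called by neither tool, was higher in LSD1 by 1.67 at P15 and 1.60 at P25.

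**Figure D5:**
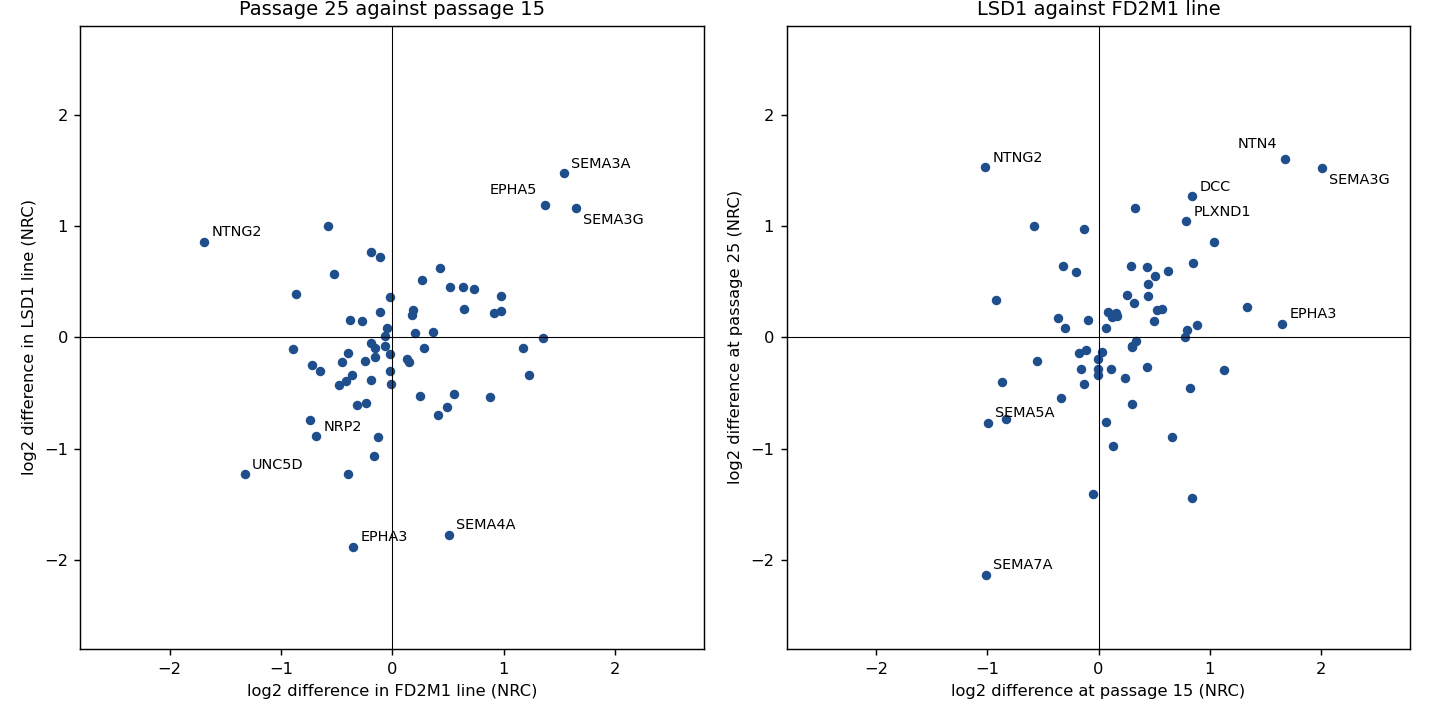
Log2 difference in NRC of the 66 guidance genes tested between neoSF and monoiPSC, 1 point per gene. The left panel shows passage 25 against 15 in each strain's monoiPSC, and the right panel LSD1 against FD2M1 monoiPSC at each passage. No error is given since each difference is between 2 libraries. EPHA5, SEMA3E, SEMA4A and SEMA7A were under the monoiPSC minimum and were not among the 62 tested within monoiPSC. SEMA3A, SEMA3G and EPHA5 lie at the upper right of the left panel and UNC5D at the lower left. NTN4 and SEMA3G lie at the upper right of the right panel, while NTNG2 changes sign between strains and between passages.

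Whether the change from neoSF to monoiPSC differed between strains was asked with an interaction term. EdgeR called 0 of 66 guidance genes against 11 of 13072 genes in all (0.0841%), with 17 at an unadjusted p under 0.05 (25.8%, against 9.13% of all genes tested), and DESeq2 called 5 (7.58% against 2.34%). In DESeq2, the monoiPSC over neoSF change in LSD1 exceeded that in FD2M1 for EPHA3 (3.09 ± 0.90), DCC (2.70 ± 0.65), EPHA7 (2.51 ± 0.69) and PLXNC1 (2.40 ± 0.63) and was below it for SLIT3 (-2.36 ± 0.56). In neoSF, where a strain is 1 library, FD2M1 was the higher of the strains for the first 4 and LSD1 for SLIT3, each by over 3-fold. Without LSD1 P15 edgeR called SLIT3 (edgeR adjusted p = 0.0421), and without LSD1 P25 EPHA3 (edgeR adjusted p = 0.0291).

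The spread between libraries of a cell type was read for the same 66 genes. The 2 neoSF libraries differed by over 2-fold for 20 of 66 (30.3%, against 14.1% of all genes tested) and by over 3-fold for 11 (16.7% against 6.75%), among them EPHA3, EPHA7, SLIT3, NTNG1 and PLXNA4. The lowest and highest monoiPSC libraries differed by over 2-fold for 27 (40.9% against 22.4%) and by over 3-fold for 9 (13.6% against 8.50%). These shares are descriptions, and no test was made of them.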

How the data were processed

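RNA-seq libraries of 2 neoSF and 4 monoiPSC cultures were analysed, grouped by the labels. Per the study's methods, the authors aligned reads to the MonDom5 assembly and its RefSeq transcripts with StrandNGS software, removed low-quality and non-primary alignments, and counted reads per gene. The values that the authors deposited are estimated counts of reads per gene, 87.1% of those above 0 not being whole. They were rounded to whole numbers here. The deposited log2 values are log2 counts that the authors scaled with DESeq across libraries, and NRC is 2 to their power, with a log2 value of 0 read as NRC 0. Whether a paired-end fragment counted once, and whether counting used strand, is not given in the sources used here. Without strand, overlapping or antisense genes cannot be told apart.

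Genes that reached an NRC of 20 in every library of either cell type (13072 of 35665) were fitted with edgeR 4.0.16 (glmQLFit, glmQLFTest, TMM scaling, R 4.3.3). Standard errors were taken from the F statistic, as the log2 fold change over its square root. A gene was DE where the p-value adjusted after Benjamini and Hochberg did not exceed 0.05 and the change was 2-fold or more. Passage was tested with strain as a covariate and strain with passage as a covariate in monoiPSC alone, and the strain interaction in all libraries. Alternatives were DESeq2 1.42.0, limma 3.58.1 on the deposited log2 values, DESeq size factors in edgeR, no minimum NRC, a strain block, each library left out, passages summed per strain and other fold thresholds. The edgeR, DESeq2 and limma fitting steps were run on simulated counts, with independent libraries and the same spread setting for all genes. Such counts do not cover passages of a strain that depend on each other. Counting intervals are exact 95% intervals of the ratio of summed, TMM-scaled counts and cover counting error only.

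FD2M1 and LSD1 neoSF pair with monoiPSC by strain of origin. The correlations of same-strain deviations from the group means over genes were 0.041, 0.078, 0.010 and -0.016. The genes, lists and roles were chosen with earlier results of these data known. Genes are named by role: the 2 DE genes that rose most and the 2 that fell most, given a mean NRC of 50 or more on the higher side, the gene that was not DE with the highest mean NRC, and those past a passage, strain or interaction threshold. The other genes are given by their calls, and families of up to 5 are given whole. Genes described beyond that rule were chosen after their values were seen. All 70 matched RefSeq entries of assembly mMonDom1.pri by gene number, used for gene order only. Chromosomes are those the count table gives for MonDom5.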

Additional observations from a re-analysis of the deposited data

Results flagged for a closer look

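For 3 of the 66 guidance genes tested, 1 of the 4 monoiPSC libraries stood apart from the others by more than the 95% critical value of Dixon's gap test. EPHA3 had an NRC of 1318 in LSD1 P15, against 329 to 420 in the other 3 libraries. ROBO2 had 1251 in the same library, against 621 to 679. SEMA3E had 53.2 in FD2M1 P25, against 19.99 to 20.8. Chance alone sets about 1 in 20 groups apart in this way, a number that 3 of 66 does not exceed. The log2 fold change of EPHA3 was -2.75 without LSD1 P15 and that of SEMA3E -1.63 without FD2M1 P25, where SEMA3E was called DE.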

How the results depend on the processing

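Of the 43 DE guidance genes, 37 were DE in all 12 alternative fits made for each gene, 6 lost the call in at least 1, and 10 that were not DE gained it in at least 1. None of the called genes changed direction. Among genes that were not DE, EFNA1, EPHA1, EPHA7, PLXNA3, PLXNA4, PLXNB1 and SEMA5A did in at least 1 alternative. The total ran from 40 (passages summed) to 46 (DESeq2), beside 5686 and 6082 of all 13072 genes tested. Leaving out 1 monoiPSC library gave 42 to 44, beside 5785 to 5986 of all genes, with 13125 to 13157 tested. With the strain as a replicate block, 42 were DE, 28 higher and 14 lower, EPHA3 being the call that was lost, and 23 of the other pathway genes. Of all 13072 genes tested, 6012 were DE in that fit. A threshold of 4-fold left 24 guidance genes (15 higher, 9 lower) and 12 other pathway genes (5 higher, 7 lower), fewer by construction. The share of all genes past 4-fold was not computed, so these counts are not set against it. For passage, DESeq2 called 2 and edgeR 0 to 1 with a library left out. For strain, DESeq2 called 5 and edgeR 0 with a library left out. For the interaction, DESeq2 called 5 and edgeR 0 to 1 with a library left out. Why the tools differ was not tested. Counting depth limits SEMA3G, SLIT1 and UNC5D, each on 10 or fewer neoSF counts.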
